A study of Mus musculus with 2 samples.

Results

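The S100 family of calcium-binding proteins was described in the mouse breast cancer line 4T1, with and without M2 macrophages nearby. The 10 genes were S100a1, S100a3, S100a4, S100a6, S100a8, S100a9, S100a10, S100a11, S100a13 and S100a16, taken by symbol from the 51912 Ensembl genes of the deposited table. Messenger RNA was measured by RNA sequencing, and values are TPM, a transcript abundance per length that sums to the same total in each library. The M2 co-culture group was 1 library of 4T1 cells kept for 3 days below M2 macrophages in a transwell, a chamber whose membrane keeps both cell types apart. The control group was 1 library labelled control 4T1, and how these cells were kept is not described further. No genotype or other treatment is given for either group, and both are the same line. The co-culture sample is titled 4T2 but its treatment label reads 4T1, which was followed here. With 1 library per group there is no replicate error and no test, so every difference compares these 2 libraries. Sequencing depth cannot be read from TPM and is unknown.

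S100 proteins are small calcium-binding proteins of vertebrates that work mostly as dimers. Binding of calcium to their EF-hand loops opens a surface that holds target proteins such as annexins, myosins and cytoskeletal factors. Several are also released from cells without a signal peptide and then act on surface receptors, among them RAGE and TLR4. In mammary tumours S100a4 is known as metastasin for its high level in metastatic lines, and S100a8 and S100a9 together form calprotectin of neutrophils and monocytes.

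The family was abundant and its summed level was higher in co-culture. The 10 genes summed to 16663.7 TPM in the co-culture library, against 10732.2 TPM in the control library. This was 1.67% of all TPM in co-culture and 1.07% in the control, a 1.55-fold difference in TPM as deposited. The log2 fold of the sum was 0.63, and scaling by the median ratio of genes lowered it to 0.52. S100a4 and S100a11 together made 4915 TPM of the 5932 TPM difference. Without S100a6, the most abundant gene of the family, the sums were 10247.5 TPM in co-culture and 5003 TPM in the control, a 2.05-fold difference.

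Of the 10 genes 9 were detected, meaning a mean TPM of at least 1 over both libraries, and S100a9 was listed at 0 in both. The log2 ratio of a gene was log2((co-culture TPM + 1)/(control TPM + 1)), and 2-fold means a ratio of at least 1 or at most -1. By this rule 4 of the 9 detected genes were higher in co-culture, namely S100a4, S100a8, S100a11 and S100a13, and none was lower. S100a8 passed the detection limit only through its co-culture value of 4.66 TPM, as its control value was 0.60 TPM. At a minimum mean of 10 TPM, 3 of 7 genes were 2-fold higher, beside 3.58% of all genes at that level. Among all 11258 detected genes 4.95% were 2-fold higher and 2.14% were 2-fold lower. The median ratio of the 9 genes was 0.67, beside 0.17 over all detected genes, and 8 of the 9 had a positive ratio, beside 64.5% of all detected genes. The TMM factor, a scaling by unweighted trimmed mean ratio, lowered co-culture values by 0.22 on the log2 scale. It was taken over Ensembl genes above 0 in both libraries, also those below the detection limit. With it 1 of the 9 genes (S100a8) was 2-fold higher and S100a6 was slightly lower in co-culture, while 2.85% of all detected genes were 2-fold higher and 3.37% lower.

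**Figure D1:**
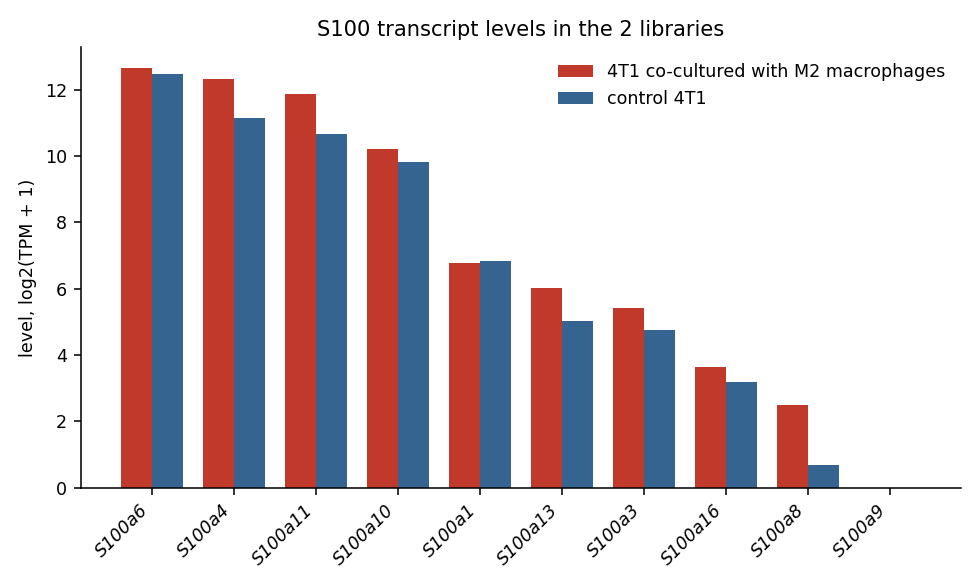
Level of each S100 gene as log2(TPM + 1) on the vertical axis, with 1 bar per library: 4T1 cells co-cultured with M2 macrophages in red and control 4T1 cells in blue, genes ordered by mean TPM. S100a6, S100a4, S100a11 and S100a10 stand far above the other genes, and S100a9 is listed at 0 in both libraries.

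S100a4 had the largest gain in TPM of any Ensembl gene in the table. The protein binds non-muscle myosin IIA and loosens its filaments, and it is linked to cell motility. S100a4 (ENSMUSG00000001020) lies on chromosome 3 of GRCm38 from 90603771 to 90606045 on the plus strand. It had 5109.7 TPM in the co-culture library and 2291 TPM in the control library, a difference of 2819 TPM and a log2 ratio of 1.16. Its rank by TPM among Ensembl genes was 20 in co-culture and 79 in the control. The ratio was 1.04 when co-culture values were divided by the median ratio of genes averaging 10 TPM or more (median ratio centring). It was 0.94 after TMM scaling.

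The bases just before the start of the S100a4 transcript hold a TATA box. They are shown because S100a4 had a log2 ratio of 1.16 while S100a6, the next S100 gene with a high level downstream, had one of 0.16. RefSeq sequences of build GRCm38.p6 are given, 5′ to 3′ on the plus strand, and capitals mark any of the motifs searched. The S100a4 stretch covers chr3:90603645-90603769 and the S100a6 stretch chr3:90612769-90612881, each ending just before the first annotated base of its gene.
S100a4: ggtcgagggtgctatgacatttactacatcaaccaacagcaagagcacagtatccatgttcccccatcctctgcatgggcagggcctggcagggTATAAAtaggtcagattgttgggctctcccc
S100a6: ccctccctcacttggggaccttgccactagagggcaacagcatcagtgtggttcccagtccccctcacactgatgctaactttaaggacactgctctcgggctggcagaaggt
The TATA box (TATAAA) of S100a4 begins 31 bases before the RefSeq start, and the S100a6 stretch holds none of the motifs. Over the 250 bases before each RefSeq start, TATAAA on either strand occurred in 12.4% of 32841 promoter windows.

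The value of S100a4 depends in part on how reads were divided with an overlapping gene. Gm42674, a predicted protein-coding gene on the same strand from 90601904 to 90605885, shares 302 of the 584 exon bases of S100a4. It had 36.2 TPM in co-culture and 28.1 TPM in the control. The sum of both genes gave a log2 ratio of 1.15, an alternative added after the data were seen. Gm42674 is a small part of this sum, so the sum could hardly differ from S100a4 alone. It does not show how the shared reads were divided.

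S100a11 had the largest ratio among the abundant S100 genes. The protein binds annexin A1 and takes part in membrane repair and in growth control of epithelial cells. S100a11 (ENSMUSG00000027907) lies on chromosome 3 from 93520488 to 93526287 on the plus strand. It had 3717 TPM in the co-culture library and 1621 TPM in the control library, a log2 ratio of 1.20 and a gain of 2097 TPM, which was rank 3 among Ensembl genes. Its rank by level was 38 in co-culture and 117 in the control. With median ratio centring its ratio was 1.08, and with the TMM factor 0.98.

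The sequence before S100a11 differs in kind from that before S100a4. It is shown over chr3:93520371-93520487 in the same way, with capitals for the motifs searched.
S100a11: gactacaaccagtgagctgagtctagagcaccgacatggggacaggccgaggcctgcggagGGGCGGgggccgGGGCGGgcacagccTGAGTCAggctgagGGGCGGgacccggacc
It holds no TATAAA and 3 GC boxes (GGGCGG), and the AP-1 motif (TGANTCA) begins 38 bases before the RefSeq start. A second AP-1 match lies 136 bases before the start, outside the stretch shown. On either strand GGGCGG occurred in 32.7% and TGANTCA in 6.75% of all windows. The other motifs searched on both strands were CCAAT (33.9% of windows), ACGTG, the core of the HIF site (16.6%), and TTCNNNGAA, a STAT site (7.02%). Among the windows of S100a4, S100a6 and S100a11, ACGTG matched on both strands at 1 place farther upstream of S100a11, and CCAAT matched once far upstream of S100a6. RefSeq windows were read for 9 of the 10 genes, as none was available for S100a10. No motif match says that a factor binds there.

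Both S100a4 and S100a11 stood out among abundant genes. Of 166 genes averaging 1000 TPM or more, a limit chosen after the data were seen, 2 were 2-fold higher in co-culture, and these were S100a11 and S100a4. With the TMM factor neither passed 2-fold. At this level 3 genes were 2-fold lower, and the median ratio was -0.19. At a limit of 500 TPM the same 2 of 254 genes were 2-fold higher. The gene with the next ratio at 1000 TPM or more was Slpi, a secreted protease inhibitor, at 1306 TPM in co-culture and 700.3 TPM in the control (log2 ratio 0.90).

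**Figure D2:**
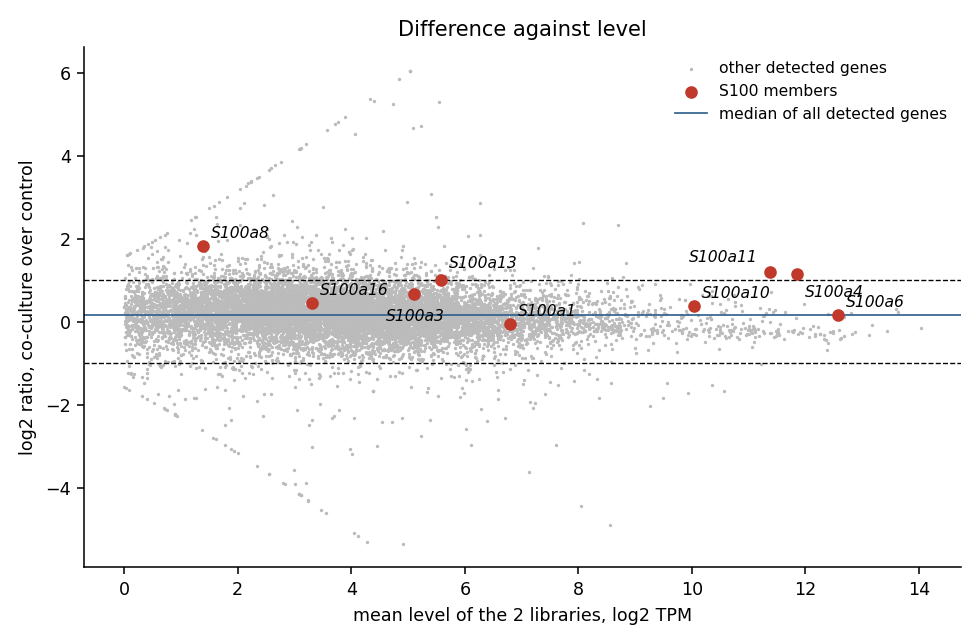
Log2 ratio of co-culture over control (vertical axis) against the mean level of both libraries in log2 TPM (horizontal axis) for all detected genes in grey and the 9 detected S100 genes in red; dashed lines mark ratios of 1 and -1 and the blue line the median of all detected genes, 0.17. S100a4 and S100a11 lie above the upper dashed line at levels where few other genes do, while S100a8 lies among genes of low level with wide ratios.

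S100a6 and S100a10 were abundant in both libraries and differed less. S100a6, or calcyclin, is a marker of growth-stimulated cells that binds annexins and the calcyclin-binding protein. S100a6 (ENSMUSG00000001025) spans 90612882 to 90624181 of chromosome 3. It had 6416 TPM in the co-culture library and 5729.5 TPM in the control library. Its log2 ratio of 0.16 was close to the median of all detected genes, and it was -0.06 with the TMM factor. S100a10, or p11, does not respond to calcium and forms a complex with annexin A2 that holds plasminogen at the cell surface. S100a10 (ENSMUSG00000041959) spans 93555080 to 93564643 of the same chromosome. It had 1189 TPM in co-culture and 911.8 TPM in the control (log2 ratio 0.38).

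The order of the 4 abundant genes was the same in both libraries, but the distances between them were not. S100a6 was first, then S100a4, S100a11 and S100a10. S100a6 made 38.5% of the family's summed TPM in co-culture and 53.4% in the control. S100a4 made 30.7% in co-culture and 21.3% in the control, and S100a11 made 22.3% and 15.1% in the same order of libraries. The level of S100a4 was 0.796 times that of S100a6 in co-culture, against 0.400 times in the control. These ratios within a library do not depend on how the libraries are scaled.

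S100a13 and S100a1 start next to each other on opposite strands and differed unequally. S100a13 takes part in the release of FGF1 and interleukin 1 alpha, which leave cells without a signal peptide. It (ENSMUSG00000042312) lies from 90514435 to 90524581 on the plus strand and had 64.1 TPM in the co-culture library, against 31.3 TPM in the control library. Its log2 ratio of 1.01 sat at the 2-fold threshold and became 0.90 by median ratio centring and 0.80 by TMM scaling. S100a1, best known as a regulator of calcium pumps and channels in heart and muscle, lies from 90511034 to 90514392 on the minus strand. It (ENSMUSG00000044080) had 108.9 TPM in co-culture and 112.7 TPM in the control (log2 ratio -0.05). The level of S100a13 was 0.589 times that of S100a1 in co-culture and 0.278 times in the control.

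Only 42 bases lie between the GENCODE starts of S100a1 and S100a13. The stretch is chr3:90514393-90514434 of GRCm38.p6, read on the plus strand, and it is shown because both transcripts start at its ends in GENCODE. The RefSeq start of S100a1 lies inside the GENCODE span of that gene, so the RefSeq starts are farther apart.
S100a1 and S100a13: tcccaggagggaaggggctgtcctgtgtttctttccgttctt
None of the 6 motifs searched occurs in it, nor in the 250 bases before the RefSeq start of either gene. Whether the libraries kept strand is unknown, and the annotated spans of these genes do not overlap.

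S100a3 and S100a16 were present at lower levels. S100a3, a protein of the hair cuticle whose arginines are converted to citrulline by PADI3, had 42.2 TPM in the co-culture library and 26.2 TPM in the control library (log2 ratio 0.67). S100a3 (ENSMUSG00000001021) spans 90560578 to 90602702 on chromosome 3, and 144 of its 5660 exon bases are shared with Gm42674. S100a16, a widely expressed member, had 11.6 TPM in co-culture and 8.20 TPM in the control (log2 ratio 0.45). It (ENSMUSG00000074457) spans 90537254 to 90543151. With each scaling and pseudocount tried, both genes were higher in co-culture and below 2-fold.

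The calprotectin genes were at the lower end. S100a8 (ENSMUSG00000056054) spans 90668978 to 90670035 of chromosome 3. It had 4.66 TPM in the co-culture library and 0.60 TPM in the control library, a log2 ratio of 1.82. The ratio rests on low values: it was 2.77 with a pseudocount of 0.1 and 0.79 with a pseudocount of 5. S100a9 (ENSMUSG00000056071), from 90692632 to 90695721, was listed at 0 in both libraries. The short stretch chr3:90669029-90669058 is shown because S100a8, like S100a4, has a TATA box close to its RefSeq start, here 30 bases before it. GENCODE places a start of S100a8 farther upstream, at 90668978, so that all 30 bases shown lie within its annotated exon, unlike those before S100a4.
S100a8: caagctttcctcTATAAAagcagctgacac
Among the 9 genes with a RefSeq window, which leave out S100a10, S100a8 and S100a4 were those with TATAAA at this distance. Among the other windows 1 of the 4 of S100a3 held it, 52 bases before that start.

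Apart from Mmp9 and Cd68, markers of neutrophils and macrophages were below the detection limit. Of 12 neutrophil markers only Mmp9 was detected, a protease that tumour cells also make, at 81.6 TPM in co-culture and 59.2 TPM in the control. Without it, the defining genes were at or near 0: Ly6g had 0 TPM and 0.06 TPM in co-culture and control, Cxcr2 had 0.18 TPM and 0.02 TPM, and 7 of the 12 were at 0 in both. Of 20 macrophage and myeloid markers only Cd68 was detected, at 27.8 TPM in co-culture and 57.7 TPM in the control (log2 ratio -1.03). The list summed to 28.4 TPM and 58.0 TPM. Lyz2 had 0.04 TPM in co-culture and was listed at 0 in the control, and 11 of the 20 were at 0 in both. In bulk RNA, fewer cells of a type and less RNA per cell cannot be told apart.

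Other markers described the cells themselves. Of 10 keratinocyte and basal epithelial markers none was detected, with sums of 1.44 TPM in co-culture and 1.01 TPM in the control. Fibroblast markers summed to 12.98 TPM and 9.29 TPM, with 2 of 12 detected, mainly Pdgfra at 10.2 TPM and 5.60 TPM. Of 10 mammary tumour epithelial markers 7 were detected, with a median ratio of 0.36. Of these 7, 1 was 2-fold higher, beside 4.95% of all detected genes. The marker was Krt19, at 2.64 TPM in co-culture and 0.18 TPM in the control, so it passed the detection limit only through co-culture. Tjp1 and Cldn3 had ratios of 0.78 and 0.72. The epithelial keratins Krt8 and Krt18 were abundant, with Krt8 at 630.4 TPM in co-culture and 548 TPM in the control, while Epcam was listed at 0 in both and Cdh1 had 0.01 TPM and 0.04 TPM. Whether other cells contributed to the S100 values was not tested beyond these levels.

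Transcript length and level are shared by several of the genes. Of the 9 detected genes 7, among them all 4 past 2-fold, have no annotated transcript over 800 nt, a limit set after the data were seen. Of 244 other detected protein-coding genes of that length 34, or 13.9%, were 2-fold higher and 10, or 4.1%, were lower. Their median ratio was 0.08. The share higher was 5.36% among the 168 of them averaging 10 TPM or more, and 3.23% among the 93 averaging 100 TPM or more. Over all detected genes the share at these levels was 3.58% and 1.84%. The part of transcript length in the S100 ratios was not tested.

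Transcript sequence shared with other genes touched 3 genes. All 50-nt windows of the annotated transcripts were compared with those of every other gene, and reads themselves were not examined. In S100a4 47.4% of windows also occurred in Gm42674, the gene that overlaps it. In S100a11 41.1% also occurred in Gm12854, a processed pseudogene listed at 0 in both libraries. In S100a3 1.94% of windows occurred elsewhere, mostly in Gm42674, and for the other 7 genes none did.

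The S100 genes lie in a main cluster and a distal cluster on chromosome 3. The main cluster spans 184688 bp and holds 12 annotated S100 genes, and the distal one spans 44156 bp with S100a11 and S100a10. In the main cluster ratios of neighbours differed: S100a13 at 1.01 lies beside S100a1 at -0.05, and S100a4 at 1.16 lies near S100a6 at 0.16. The other protein-coding genes within 200 kb of the main cluster numbered 10, of which 6 were detected. Their ratios ran from 0.22 to 0.60 with a median of 0.28. None was 2-fold different, beside 4.95% higher and 2.14% lower among all detected genes. Ints3, a subunit of the Integrator complex, had the highest, with 21.3 TPM in co-culture and 13.6 TPM in the control. Gm42674, which overlaps S100a4, was among the 6 detected, with a ratio of 0.35. The rest of the 6 lay on the S100a1 side of the cluster, and the neighbours beyond S100a9 were listed at 0 in both libraries. Around the distal cluster all 7 other protein-coding genes were listed at 0 in both libraries, among them the epidermal genes Hrnr, Rptn and Tchh.

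**Figure D3:**
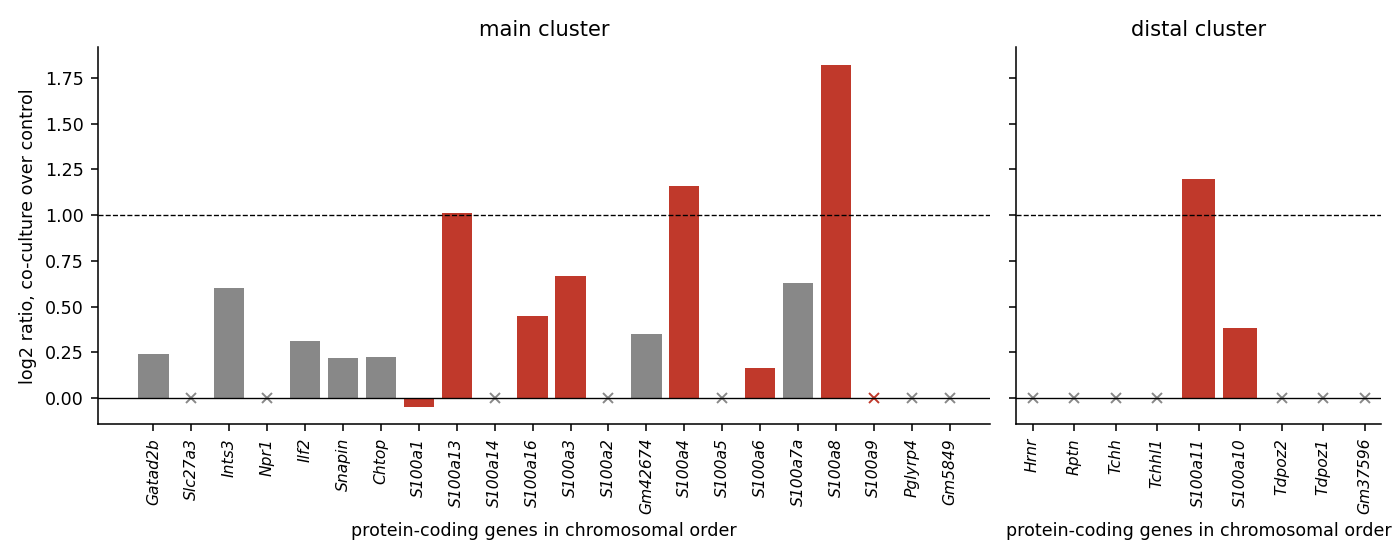
Log2 ratio of co-culture over control (vertical axis) for protein-coding genes in chromosomal order around both S100 clusters; red bars are the S100 genes of the family list, grey bars other genes, crosses genes below the detection limit, and the dashed line a ratio of 1. The bars past the line are S100a13, S100a4, S100a8 and S100a11, and genes directly beside them are lower.

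Other S100 genes were mostly silent. Of the 6 genes of the list of other S100 genes that the table holds, S100a7a, a mouse relative of psoriasin of inflamed skin, was the detected one, at 19.1 TPM in the co-culture library and 12.0 TPM in the control library (log2 ratio 0.63). S100a5 had 0.32 TPM in co-culture and was listed at 0 in the control. S100a14 had 0.41 TPM and 0.54 TPM, and S100b was listed at 0 in co-culture and at 0.03 TPM in the control. S100g and S100z were listed at 0 in both, and so was S100a2, a gene of the main cluster that stood on neither list. The 7 fused-type S100 genes, which encode large proteins of the skin barrier such as filaggrin (Flg), were all listed at 0.

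The genes of S100 receptors and surface partners had a median ratio of 0.52 over 7 detected members of 11. Of these 7, 1 was at least 2-fold higher and none lower, beside 4.95% and 2.14% of all detected genes. Tlr4 and Ager, which encode receptors of extracellular S100 proteins, were low and Bsg was not. Tlr4 had 4.42 TPM in the co-culture library and 1.78 TPM in the control library (log2 ratio 0.96). Ager, the gene of RAGE, had 0.04 TPM in co-culture and was listed at 0 in the control. Bsg (basigin), in human cells a receptor for S100a9, was abundant at 782 TPM in co-culture and 673 TPM in the control. Alcam, an adhesion molecule, had a log2 ratio of 0.71.

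The plasminogen system, which the S100a10 complex serves, held the gene past 2-fold. Plau (urokinase, an activator of plasminogen) had 107.9 TPM in the co-culture library and 24.9 TPM in the control library (log2 ratio 2.07). Its receptor gene Plaur had 180.6 TPM in co-culture and 125 TPM in the control (log2 ratio 0.52). The ratios of Plat, the tissue activator, and Plgrkt, a plasminogen receptor, were 0.21 and 0.09.

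Intracellular partners had a median ratio near the 0.17 of all detected genes. Over 15 detected members of 21 the median ratio was 0.19, and -0.03 with the TMM factor, as was that of all detected genes. None was 2-fold higher and 1 was lower, beside 4.95% and 2.14% of all detected genes. Myh9, the myosin heavy chain bound by S100a4, had 100.9 TPM in the co-culture library and 90.9 TPM in the control library (log2 ratio 0.15). Anxa1, the partner of S100a11, had 334.5 TPM in co-culture and 293 TPM in the control (log2 ratio 0.19). Anxa2, the partner of S100a10, had 1628 TPM and 1413 TPM in the same order, and the large scaffold gene Ahnak, which the complex also binds, had a ratio of 0.29.

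Levels of S100 genes over those of their partners moved for some pairs and hardly for others. S100a4 was 50.6 times Myh9 in co-culture and 25.2 times in the control, and S100a11 was 11.1 times Anxa1 in co-culture and 5.53 times in the control. S100a10 was 0.730 times Anxa2 in co-culture and 0.645 times in the control. Cacybp, the partner of S100a6, had 44.0 TPM in co-culture and 45.3 TPM in the control, and S100a6 was 146 times its level in co-culture and 127 times in the control. S100a3 was 1.58 times Padi3 in co-culture and 1.64 times in the control, and S100a1 was 1.25 times Atp2a2 in co-culture and 1.05 times in the control.

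Cargo and regulators of the other members were mixed. Fgf1 had 0.74 TPM in the co-culture library and 0.36 TPM in the control library, and Il1a had 0.72 TPM and 0.29 TPM, so both cargo genes linked to S100a13 were below detection. Padi3, the enzyme that modifies S100a3, had 26.8 TPM in co-culture and 15.9 TPM in the control (log2 ratio 0.71). S100pbp, which encodes an S100-binding protein, had a ratio of 0.74. Myh10, Mdm2 and Anxa6 had ratios of 0.49, 0.45 and 0.51. Trp53, whose protein binds several S100 proteins, had 25.9 TPM in co-culture and 94.2 TPM in the control (log2 ratio -1.82) and was the member 2-fold lower. Atp2a2, the calcium pump regulated by S100a1, had a ratio of -0.30, and Anxa11 had 0.04.

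Neither annexins nor other EF-hand genes held a detected gene past 2-fold, beside 4.95% of all detected genes 2-fold higher and 2.14% lower. However, Nucb2 of the EF-hand list was 2-fold lower with a pseudocount of 0.1 and by TMM scaling or median ratio centring. Below the detection limit, Rcn3 of the same list was listed at 0 in co-culture and at 1.49 TPM in the control. The annexin list had a median ratio of 0.10 over 10 detected members of 12, and -0.08 with the TMM factor. Anxa6 had the highest ratio, 0.51, and Anxa8 the lowest, -0.28. Anxa5 had 863 TPM in the co-culture library and 847 TPM in the control library, and the ratios of Anxa3, Anxa4 and Anxa7 were -0.04, 0.22 and 0.14. For the other EF-hand genes the median was 0.24, with 24 of 33 detected. In it Calm3, 1 of the calmodulin genes, had 203 TPM in co-culture and 118 TPM in the control (log2 ratio 0.77). Efhd2, Capn2, Capn1 and Cetn3 had ratios of 0.60, 0.55, 0.48 and 0.47. Nucb2, a calcium-binding protein of the Golgi and secretory route, had 13.8 TPM in co-culture and 27.7 TPM in the control (log2 ratio -0.96). The abundant members Myl12a, Myl6, Calu and Calm2 had ratios of -0.10, 0.15, 0.18 and 0.35.

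**Figure D4:**
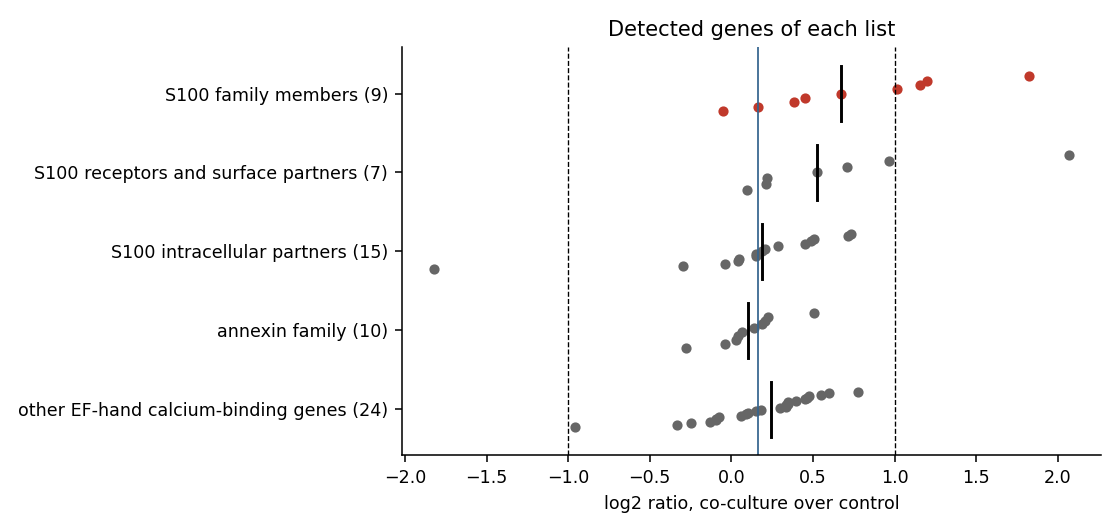
Log2 ratio of co-culture over control (horizontal axis) for detected genes of 5 lists, 1 point per gene and the number of genes in brackets; black bars are list medians, dashed lines ratios of 1 and -1, and the blue line the median of all detected genes. The S100 genes have the median farthest to the right, 0.67, and the annexins lie closest to 0.

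The genes closest in level to the most abundant S100 gene and to the one with the largest ratio were sought. Likeness was the distance of log2(TPM + 1) over the 2 libraries among protein-coding genes. Nearest to S100a6 were Gphn, Rps12-ps3 and Rpsa, at distances of 0.25, 0.30 and 0.33. Nearest to S100a8 were Slc39a10, Stc1 and Rsg1, at 0.20, 0.24 and 0.24, and Stc1, a secreted glycoprotein, had 5.57 TPM in co-culture and 0.71 TPM in the control.

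The 2-fold calls of the abundant genes lie close to the threshold, so they move with the scaling. S100a4 and S100a11 passed 2-fold with 6 of the 7 pseudocounts and scalings plotted and missed it with the TMM factor. S100a13 passed with 3 of them. All 3 were higher in co-culture with each of these settings.

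**Figure D5:**
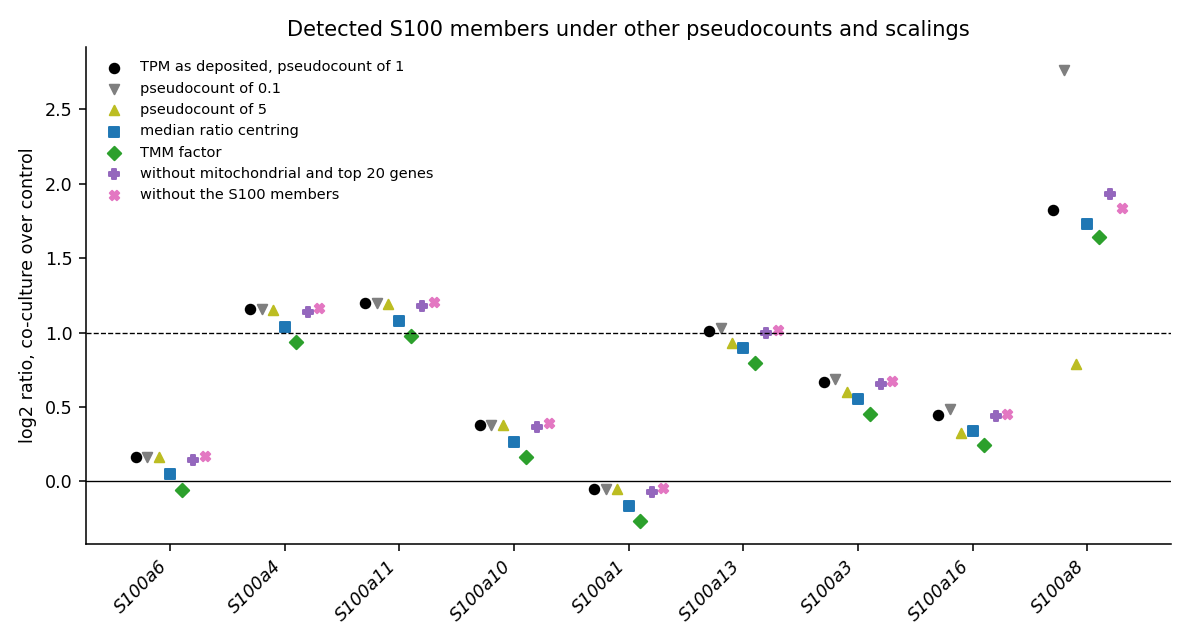
Log2 ratio of co-culture over control (vertical axis) for each detected S100 gene under 7 pseudocounts and scalings, 1 symbol per setting; the dashed line marks a ratio of 1. S100a4 and S100a11 stay between 0.94 and 1.21, whereas S100a8 runs from 0.79 to 2.77 and S100a6 crosses 0.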

How the data were processed

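RNA sequencing values of 2 libraries, 1 of M2 co-cultured and 1 of control 4T1 cells, were used. The authors deposited 1 table of TPM with 52796 rows and 1 column per library, rounded to 2 decimals. HISAT2 2.1.0, RSEM 1.2.31 and the build GRCm38.p5 are named in the submitters' processing notes, without roles. No annotation, strandedness or filter is stated in the labels. RSEM divides reads shared by several genes, and short transcripts depend on an effective length, so values of overlapping or short genes carry that uncertainty. Symbols (51633 of 51912 Ensembl identifiers), positions and transcripts came from GENCODE M21 on GRCm38, and promoters from RefSeq (GRCm38.p6). The 884 assembled loci were kept in library totals and left out of all comparisons.

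Log2 ratios used a pseudocount of 1, which understates differences of low genes. The detection limit was a mean TPM of 1. Python 3.11.15 with pandas 2.3.3 and numpy 2.4.6 was used, and the procedure was tested on simulated data. The simulation changed control values by set amounts with added noise. It therefore does not bear on noise of read counts, transcript length or shared reads. The family and gene lists were chosen with earlier results of these data known. Genes named were all family members, other S100 genes, their direct partners, and per list up to 6 detected genes with the largest ratio and 4 with the highest TPM, plus the leading markers. Slpi, Ints3 and the epidermal neighbours were named after their values were seen. Alternatives were 2 other pseudocounts, 2 other filters, 4 scalings, a 1.5-fold threshold and the mean.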

Additional observations from a re-analysis of the deposited data

How the results depend on the processing

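No paired analysis was possible because each group has 1 library. For the same reason no library could be left out. Median ratio centring lowered co-culture values by 0.12 and the TMM factor by 0.22 on the log2 scale. The number of S100 genes at least 2-fold higher was 4 as reported, 2 with a pseudocount of 5 and 1 with the TMM factor. It was 3 at a minimum of 10 TPM, with median ratio centring and with rescaling without mitochondrial and the 20 most abundant genes. In the same order, 3.58%, 3.61% and 5.09% of all genes passing the filter were at least 2-fold higher. Over all detected genes the pseudocount of 5 gave 199 genes higher and the TMM factor 321, in place of 557. None of the S100 genes was 2-fold lower under any setting tried. The median ratio of the S100 genes was 0.56 without a filter, 0.56 by median ratio centring and 0.45 by TMM scaling. Over all genes passing the filter it was 0.17 as reported, 0 without a filter, 0.059 by centring and -0.032 by TMM scaling. The summed level had a log2 fold of 0.63, which was 0.52 with median ratio centring and 1.03 without S100a6. The sum was not recomputed with the TMM factor, which lowers co-culture values more than the centring does. With the TMM factor S100a6 had a ratio of -0.056.

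For other S100 genes the median was 0.50 with a pseudocount of 5, 0 without a filter, 0.52 with centring and 0.42 with the TMM factor. For receptors and surface partners it was 0.35 with a pseudocount of 5, 0.21 without a filter, 0.22 at a minimum of 10 TPM, 0.41 with centring and 0.31 with the TMM factor. A pseudocount of 0.1 gave 2 of them 2-fold higher, beside 7.87% of all detected genes. The intracellular partners had a median of 0.075 with centring and -0.029 with the TMM factor, and the annexins -0.083 with the TMM factor. The other EF-hand genes had 0.059 without a filter, 0.13 with centring and 0.023 with the TMM factor. Of them Nucb2 was 2-fold lower with a pseudocount of 0.1 and with either of those scalings, and Rcn3 was with no filter. Median ratio centring and the TMM factor each divide all co-culture values by a constant factor, so every list median falls with them. The median of all detected genes fell too, to 0.059 with centring and -0.032 with the TMM factor. The cause of the other shifts was not tested beyond the construction of each setting. The unknown depth limits all values near the detection limit, S100a8 among them.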
